A study of Mus musculus with 16 samples.

Results

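Transcript abundance of 10 Wnt ligands was followed in the cortical bone of the femur of mice with and without hindlimb unloading (HLU), in which the tail is suspended so that the hind limbs carry no weight. The ligands were Wnt1, Wnt2b, Wnt4, Wnt5a, Wnt5b, Wnt7b, Wnt9a, Wnt10b, Wnt11 and Wnt16. They were chosen by gene symbol, with earlier results of these data known. Each had 1 row among the 36829 features listed for every mouse, which also hold the other 9 mouse Wnt ligands. All 16 mice were C57Bl/6 females of 11 weeks with no genetic change, 8 left with normal weightbearing (Control) and 8 unloaded for 7 days (HLU). Bone ends had been cut off and the marrow flushed out before RNA was isolated. Levels are in RPKM, read numbers scaled to gene length and library size. Ligands were compared within a mouse on this scale, which rests on the gene lengths behind the deposited values. The total read number by which RPKM had been divided ran from 7067512 to 19708590 in Control and from 7838277 to 21363584 in HLU.

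Wnt ligands are secreted glycoproteins that act over short distances. In the producing cell the acyltransferase Porcn attaches a lipid to a conserved serine, and the carrier Wls brings the ligand to the cell surface. There it binds Frizzled receptors, either together with the co-receptors Lrp5 and Lrp6, which leads to stabilization of beta-catenin, or with other partners that do not act through beta-catenin. In bone this pathway is known for its control of bone formation, and osteocytes, the cells embedded in the matrix, secrete its inhibitor sclerostin, the product of Sost. The coding stretch around the lipid-bearing serine is shown for each ligand because it is what the family members share at the level of sequence. The stretches come from GENCODE M21 transcripts (GRCm38), run 5′ to 3′, are 36 bases long, and have the serine codon in capitals.
Wnt1: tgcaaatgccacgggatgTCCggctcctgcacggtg
Wnt2b: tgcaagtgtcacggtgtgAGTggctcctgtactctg
Wnt4: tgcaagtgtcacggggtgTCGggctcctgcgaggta
Wnt5a: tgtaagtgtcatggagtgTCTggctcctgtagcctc
Wnt5b: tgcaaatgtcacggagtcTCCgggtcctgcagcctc
Wnt7b: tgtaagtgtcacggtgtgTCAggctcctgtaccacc
Wnt9a: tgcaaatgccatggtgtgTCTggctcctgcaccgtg
Wnt10b: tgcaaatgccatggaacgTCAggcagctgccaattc
Wnt11: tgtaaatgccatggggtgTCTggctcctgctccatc
Wnt16: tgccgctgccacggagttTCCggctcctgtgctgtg

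Between 23 bases (Wnt10b and Wnt16) and 30 bases (Wnt7b) of this stretch were the same as in Wnt5a. Over the whole transcripts, the longest identical run between any pair of the 10 ligands was 12 to 29 bases, the longest being that of Wnt5a with Wnt5b. In GRCm38, Wnt10b (chr15:98770712-98778150, minus strand) and Wnt1 (chr15:98789857-98793837, plus strand) are neighbours with 11706 bases between them, and Wnt7b lies on the same chromosome (chr15:85535437-85582473, minus strand). Wnt5b (chr6:119432531-119544347, minus strand) and Wnt16 (chr6:22288227-22298522, plus strand) share chromosome 6. The other ligands are Wnt2b (chr3:104945272-104961921, minus strand), Wnt4 (chr4:137277489-137299726, plus strand), Wnt5a (chr14:28504750-28527448, plus strand), Wnt9a (chr11:59306928-59333552, plus strand) and Wnt11 (chr7:98835112-98855195, plus strand). Exons of a gene annotated on the opposite strand share 358 bases with Wnt5a, 324 bases with Wnt7b and 364 bases with Wnt11. How reads were assigned by strand is not given in the sources used here, and reads from those shared bases cannot be told apart between the 2 genes.

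Of the 10 ligands 7 were detected at an average of 0.5 RPKM or more over the 16 mice, with reads in every mouse. By their means in Control, from high to low, they were Wnt16, Wnt10b, Wnt5b, Wnt4, Wnt5a, Wnt2b and Wnt9a. Wnt1, Wnt11 and Wnt7b had means of 0.0839, 0.0890 and 0.0573 RPKM, with at most 22 reads in any mouse. The highest ligand was at 4.51 RPKM on average, so the whole family was low, with Wnt16 above 71.9% of the features that had any reads and Wnt9a above 45.6% of them.

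Wnt16, an osteoblast product known to restrain osteoclast formation and to maintain cortical thickness, was the highest ligand in both groups. Its RPKM in Control ran from 1.11 to 6.48 with a median of 3.43, and in HLU from 2.44 to 9.13 with a median of 4.48. The groups overlapped, with 2 of 8 HLU mice above every Control mouse and 6 of 8 above the Control median. The means were 3.87 ± 1.92 RPKM in Control and 5.15 ± 2.48 RPKM in HLU (SD, n = 8 each). Wnt16 made up 27.8% ± 6.77 of the summed RPKM of the 10 ligands in Control and 31.6% ± 7.59 in HLU.

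Wnt10b, known to favour osteoblast over adipocyte differentiation, came next. In Control it ran from 0.715 to 6.58 RPKM with a median of 2.60, and in HLU from 1.37 to 5.30 with a median of 3.56. No HLU mouse lay outside the Control range, and the means were 3.20 ± 1.90 and 3.32 ± 1.44 RPKM. The ratio of the highest to the lowest mouse was 9.19 in Control and 3.87 in HLU.

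Wnt5b, a close relative of Wnt5a, ran from 0.828 to 3.84 RPKM in Control (median 2.25) and from 1.30 to 3.45 RPKM in HLU (median 2.45), again with every HLU mouse inside the Control range. Its means, 2.34 ± 0.989 and 2.37 ± 0.839 RPKM, were the nearest to each other of the 7 detected ligands. Wnt4, best known for its part in kidney and female reproductive tract development, ran from 1.19 to 3.47 RPKM in Control (median 1.73) and from 1.14 to 4.85 RPKM in HLU (median 2.06). Its HLU range was wider on both sides, with 1 mouse above and 1 mouse below all Control mice, and the means were 1.95 ± 0.842 and 2.30 ± 1.23 RPKM.

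Wnt5a, a ligand that mostly acts without beta-catenin and that is known to promote osteoclast formation through Ror2, ran from 0.384 to 1.33 RPKM in Control (median 0.885) and from 0.476 to 1.80 RPKM in HLU (median 0.996). The means were 0.870 ± 0.400 and 1.07 ± 0.473 RPKM, and 2 HLU mice exceeded all Control mice. Wnt2b, known from lung and eye development, ran from 0.398 to 1.19 RPKM in Control (median 0.770) and from 0.353 to 1.39 RPKM in HLU (median 0.862), with means of 0.746 ± 0.261 and 0.810 ± 0.328 RPKM. Wnt9a, a ligand of joint formation, ran from 0.159 to 1.21 RPKM in Control (median 0.378) and from 0.356 to 1.61 RPKM in HLU (median 0.705), with means of 0.579 ± 0.383 and 0.762 ± 0.395 RPKM. For both Wnt2b and Wnt9a 1 HLU mouse, HLU 7, exceeded every Control mouse, and for Wnt2b 1 HLU mouse, HLU 3, lay below every Control mouse.

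**Figure D1:**
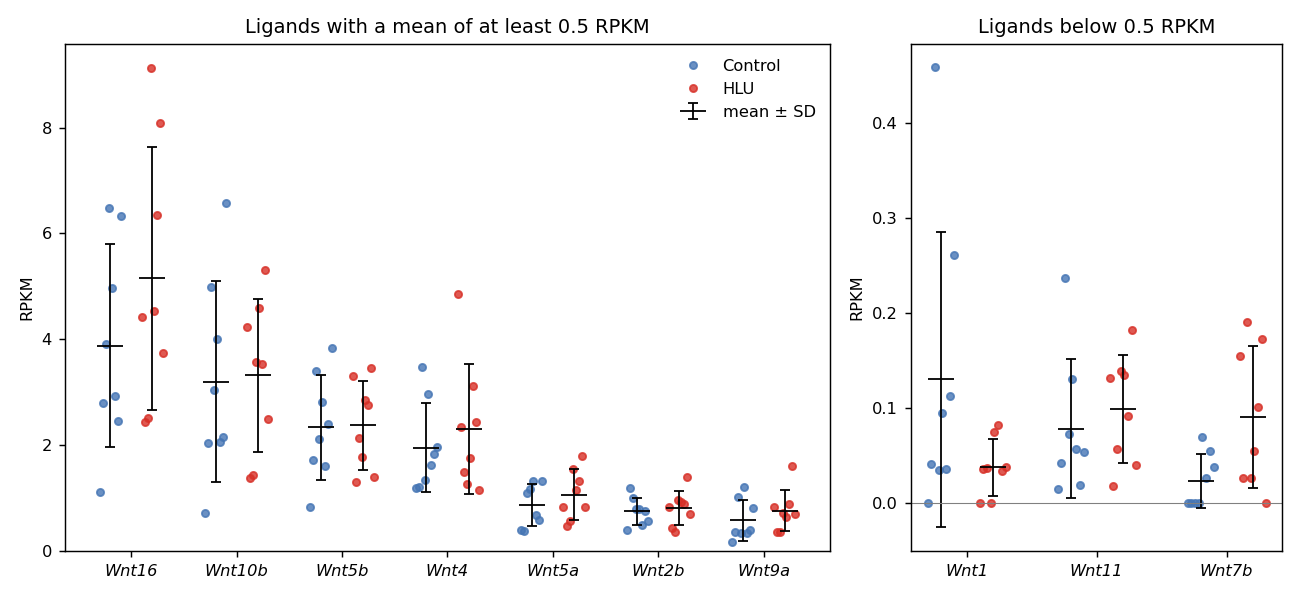
RPKM of the 7 ligands averaging 0.5 RPKM or more (left) and of the 3 below it (right), 1 point per mouse, Control in blue and HLU in red, with the mean and SD of 8 mice in black. The groups overlap for every ligand, and the right axis covers less than 0.5 RPKM.

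Within Control, neighbours in the order of levels were compared in the same mouse by a two-sided exact sign-flip permutation test on log2(RPKM + 0.1), whose smallest p with 8 mice is 0.0078, with Benjamini-Hochberg adjustment over the 9 pairs. The step from Wnt4 down to Wnt5a was 1.10 ± 0.503 on the log2 scale (SD, n = 8) and was seen in 8 of 8 mice (exact p = 0.0078, adjusted p = 0.0352). The step from Wnt9a to Wnt1 was 1.59 ± 0.527, also in 8 of 8 mice (exact p = 0.0078, adjusted p = 0.0352). The other 7 steps did not pass. Wnt16 exceeded Wnt10b in 6 of 8 Control mice (exact p = 0.0625, adjusted p = 0.112), Wnt10b exceeded Wnt5b in 6 of 8 (adjusted p = 0.105, exact test), and Wnt5a exceeded Wnt2b in 6 of 8 by 0.14 ± 0.759 (adjusted p = 0.602, exact test). The order of the 7 detected ligands by mean was the same in HLU, where Wnt16 exceeded Wnt10b in 7 of 8 mice by 0.61 ± 0.434 and Wnt4 exceeded Wnt5a in 7 of 8 mice. In Control the 4 ligands from Wnt16 to Wnt4 were thus set apart from the 3 from Wnt5a to Wnt9a. In HLU 4 steps between neighbours passed against 2 in Control, a difference between the groups that was not tested. Neighbours were set in each group by the means of the same mice. In HLU the step from Wnt4 down to Wnt5a was 1.01 ± 0.905, and that from Wnt9a to Wnt11 was 2.05 ± 0.400, in 8 of 8 mice. Wnt5a also exceeded Wnt2b by 0.34 ± 0.223 in 7 of 8 HLU mice. The order and steps in both groups rest on the gene lengths behind RPKM. The shortest length that the RPKM values imply was 5272 bases for Wnt5b and 12536 for Wnt5a. Exons in GENCODE M21 cover 2654 and 7823 bases of these genes. For Wnt2b the implied length was the shorter one, 3573 against 4201 bases. How far the order and the shares of summed RPKM depend on these lengths was not tested.

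The comparison of HLU with Control asked whether loss of loading changed the abundance of any ligand. In limma on log2(RPKM + 0.1) across the 16973 features that averaged 0.5 RPKM or more, 0 of the 7 detected ligands passed an adjusted p of 0.1 with a change of at least 1.2-fold, a rule that 0% of all features passed. At an unadjusted p of 0.05 with the same fold, 0 of 7 were higher and 0 of 7 were lower, against 1.11% of all features higher and 4.76% lower. The lowest adjusted p among all features was 0.256, and 1049 features had an unadjusted p under 0.05. On reads recovered from the RPKM values and tested with voom, 0 ligands passed the adjusted threshold as well.

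Wnt16 differed by 0.43 on the log2(RPKM + 0.1) scale (HLU minus Control, standard error 0.35, 95% interval -0.31 to 1.17), with a two-sided exact permutation p of 0.271 and an adjusted p of 0.764 in limma. Wnt9a differed by 0.43 (standard error 0.36, 95% interval -0.33 to 1.18), with an exact permutation p of 0.256 and an adjusted p of 0.766 in limma. These were the largest differences among the 7 detected ligands, and both intervals include 0 and also a log2 difference of 1. The differences of Wnt5a (0.28, 95% interval -0.38 to 0.94), Wnt4 (0.18, -0.43 to 0.80) and Wnt10b (0.15, -0.67 to 0.97) had exact permutation p values of 0.391, 0.559 and 0.726. Those of Wnt2b (0.08, -0.49 to 0.64) and Wnt5b (0.06, -0.54 to 0.66) had exact permutation p values of 0.764 and 0.837. The smallest p that this test allows over the 12870 splits of the mice is 0.000155.

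The point estimate was above 0 for 7 of the 7 detected ligands, with a median of 0.18, while it was above 0 for 32.1% of all features, whose median was -0.10. The 7 values are not independent, since the ligands varied together from mouse to mouse as described below. After median-of-ratios rescaling of the RPKM values and after quantile normalization the estimate stayed above 0 for 7 of 7. With a score of erythroid, neutrophil and B cell markers in the fit it was above 0 for 3 of 7, and the values were 0.10 for Wnt16, 0.11 for Wnt9a, 0.07 for Wnt4, -0.03 for Wnt5a, -0.08 for Wnt5b, -0.16 for Wnt10b and -0.18 for Wnt2b. Without the library Control 1 it was above 0 for 4 of 7, with Wnt2b at -0.02, Wnt5b at -0.12 and Wnt10b at -0.10. Without HLU 7 Wnt2b was at -0.04 and Wnt5b at -0.02, and Wnt5b was at -0.01 without HLU 1. Control 1 had the lowest level of its group for 6 of the 7 detected ligands, although its library was the deepest of Control.

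**Figure D2:**
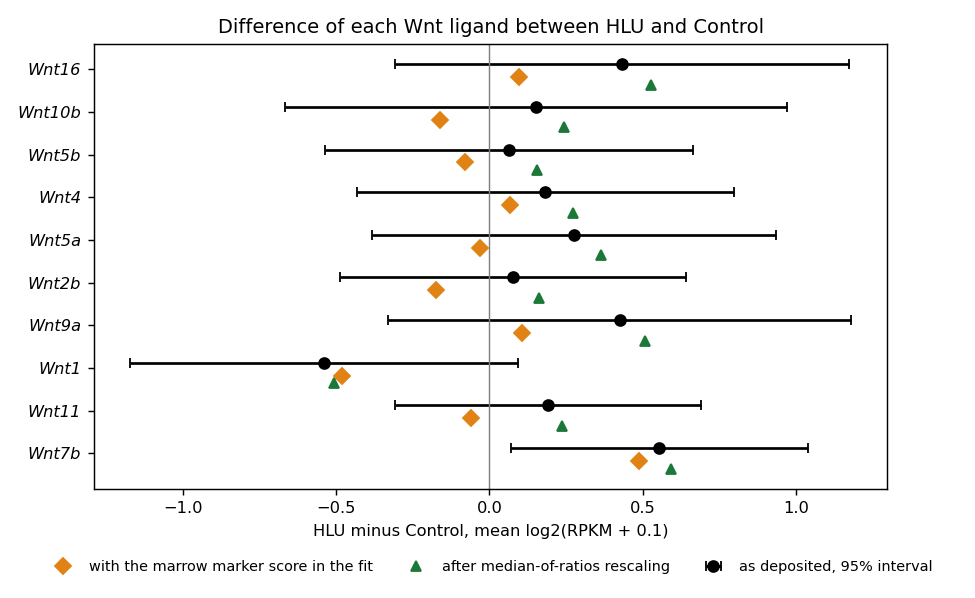
Difference between HLU and Control in mean log2(RPKM + 0.1) for the 10 ligands, with the 95% interval from limma (black circles) and the estimates with the marrow marker score in the fit (orange diamonds) and after median-of-ratios rescaling (green triangles). The intervals of 9 ligands include 0, that of Wnt7b runs from 0.07 to 1.04, and the diamonds lie nearer to or below 0 for the 7 detected ligands.

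The 3 ligands below 0.5 RPKM were read from the same model fitted to all 29628 features with any reads. There 0 of the 3 passed the adjusted threshold (0.00338% of features did), 1 of 3 was higher at the unadjusted threshold (1.32% of features were) and 0 of 3 were lower (3.54% of features were). Fold changes of these ligands depend on the pseudocount, so reads are given first.

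Wnt7b, which is known to rise during osteoblast differentiation and to stimulate bone formation, was the ligand that passed. It had 7 reads in all over the 8 Control mice, with 4 mice at 0 and a highest value of 3 reads. In HLU it had 29 reads, with HLU 8 at 0 and HLU 1, HLU 3, HLU 6 and HLU 7 at 5 to 7 reads, all above every Control mouse. In RPKM, Control ran from 0 to 0.0699 (median 0.0135) and HLU from 0 to 0.190 (median 0.0780). The log2 difference was 0.55 (standard error 0.23), with an exact permutation p of 0.0399 and p values of 0.0275 unadjusted and 0.820 adjusted in limma. It ran from 0.09 with a pseudocount of 1 to 1.57 with a pseudocount of 0.01. Wnt7b no longer passed the unadjusted threshold without HLU 1 (log2 difference 0.48), without HLU 3 (0.45), without HLU 7 (0.47), without the 2 smallest libraries (0.54), or with the marrow score in the fit (0.49). A level of 3 reads corresponded to 0.0606 to 0.183 RPKM of Wnt7b, depending on the library, so most of its values lay at or under what 3 reads give.

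Wnt1, whose loss of function causes bone fragility in humans, had an estimate of the other sign. Control mice had 49 reads in all, of which Control 3 had 22 and Control 8 had 10, and HLU mice had 16 reads with at most 6 in any mouse. In RPKM, Control ran from 0 to 0.458 (median 0.0683) and HLU from 0 to 0.0824 (median 0.0363). The log2 difference was -0.54 (standard error 0.30), with an exact permutation p of 0.104 and an adjusted p of 0.820 in limma, and it was -0.32 without Control 3. Wnt11, a ligand of cell movements during gastrulation, had 62 reads in Control and 85 in HLU. It ran from 0.0154 to 0.237 RPKM in Control (median 0.0553) and from 0.0184 to 0.182 RPKM in HLU (median 0.112), a log2 difference of 0.19 (standard error 0.24) with an exact permutation p of 0.427 and an adjusted p of 0.835 in limma.

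Among the other 9 mouse Wnt ligands, Wnt7a was listed at 0 in all mice and no ligand had more than 6 reads in any mouse. Wnt6 averaged 0.0981 RPKM over the 16 mice, above the means of Wnt11, Wnt1 and Wnt7b. It had 43 reads and Wnt10a had 28 reads over the 16 mice, and Wnt2, Wnt3, Wnt3a, Wnt8a, Wnt8b and Wnt9b had 2 to 9. Their summed level was at most 0.294 RPKM in a Control mouse and 0.454 RPKM in an HLU mouse. The 10 ligands described here summed to 13.8 ± 5.88 RPKM in Control and 16.01 ± 5.72 RPKM in HLU.

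The detected ligands varied between the mice of a group, with a coefficient of variation in Control from 35.0% for Wnt2b to 66.2% for Wnt9a. Among low read numbers, 4 reads (11290 values) were more frequent than 3 (10047), and 6 reads (7485) more frequent than 5 (6368), while 2 reads (22247) were less frequent than 1 (25710). Read numbers were recovered with the shortest length that gave whole reads in every mouse. Where all reads of a feature share a common factor they come out too low, so these frequencies also depend on that choice. Whether the mates of a fragment were counted apart is not given in the sources used here, so the read numbers given here may overstate the number of fragments.

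The spread went with fibrous, osteocyte and osteoblast markers, by the adjusted p of Pearson's r for 7, 5 and 4 of the 7 ligands. Each of the 7 detected ligands was related to 4 marker scores over the 16 mice, after every value had been centred on its group mean, with two-sided permutation within groups and Benjamini-Hochberg adjustment over the 28 relations. A score is the mean centred log2(RPKM + 0.1) of the listed markers. With the fibrous score, of periosteum and tendon markers such as Postn and Aspn, 7 of 7 ligands had an adjusted p under 0.05 by Pearson's r (0.56 to 0.90) and 6 of 7 by Spearman's rho. Among all 16973 features 15.6% had an r with this score at least as high as the lowest of these 7, and the median r over all features was -0.02 against 0.84 over the ligands. Without the 2 mice farthest from the median score, Control 1 and HLU 3, r ran from 0.33 to 0.88, and the relation no longer held for Wnt2b (permutation p = 0.280) and Wnt4 (permutation p = 0.109). Wnt5a had the closest relation, with r = 0.90 (adjusted permutation p = 0.000280), rho = 0.83 (adjusted permutation p = 0.00462) and r = 0.88 without those mice.

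With the osteocyte score 5 of 7 ligands had an adjusted p under 0.05 by r and 4 of 7 by rho, while 7.61% of all features reached the lowest r of those 5. Wnt10b had the highest r, 0.83, with rho = 0.89, and r = 0.85 without HLU 2 and Control 2, the mice farthest from the median score. Without them 5 of 7 ligands had a permutation p under 0.05, with Wnt2b (p = 0.0119) among them and Wnt9a (p = 0.0633) not. For the fibrous score without its own 2 farthest mice the number was also 5 of 7. Over the 7 ligands r ran from 0.37 for Wnt4 to 0.83. With the osteoblast score 4 of 7 ligands had an adjusted p under 0.05 by r and 3 of 7 by rho, while 8.98% of all features reached the lowest r of those 4. Wnt5b had r = 0.75 and rho = 0.79, and Wnt4 had r = 0.73 and rho = 0.80. With the osteocyte score Wnt4 had r = 0.37 and rho = 0.51, and with the osteoblast score Wnt16 had r = 0.39 and rho = 0.31. Both of these were higher within Control, at 0.61 for Wnt4 with the osteocyte score and 0.75 for Wnt16 with the osteoblast score, than within HLU, at 0.13 and -0.09. The differences between the scores, between the ligands and between the groups in these relations were not tested.

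With the marrow score, the mean of the erythroid, neutrophil and B cell scores, r was negative for all 7 ligands, from -0.66 for Wnt2b to -0.25 for Wnt4. Of these 5 of 7 had an adjusted p under 0.05 by r, but 0 of 7 had one by rho, and without HLU 2 and HLU 7, the 2 mice farthest from the median score, 0 of 7 had a permutation p under 0.05. The r without those mice was -0.48 to -0.05. After median-of-ratios rescaling 5 of 7 again passed by r, 2 of 7 passed by rho (Wnt5a and Wnt16), and 4 of 7 had a permutation p under 0.05 without the 2 farthest mice (Wnt2b, Wnt5a, Wnt9a and Wnt16), so whether the relation holds without them depends on the scaling. Of all features 9.52% reached the weakest r of the 5 ligands. Within HLU r ran from -0.96 for Wnt16 to -0.23 for Wnt4, and within Control from -0.35 to 0.08, a difference between the groups that was not tested. All ligands and scores of a mouse share 1 library, and in bulk RNA fewer cells of a type and less RNA per cell cannot be told apart.

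**Figure D3:**
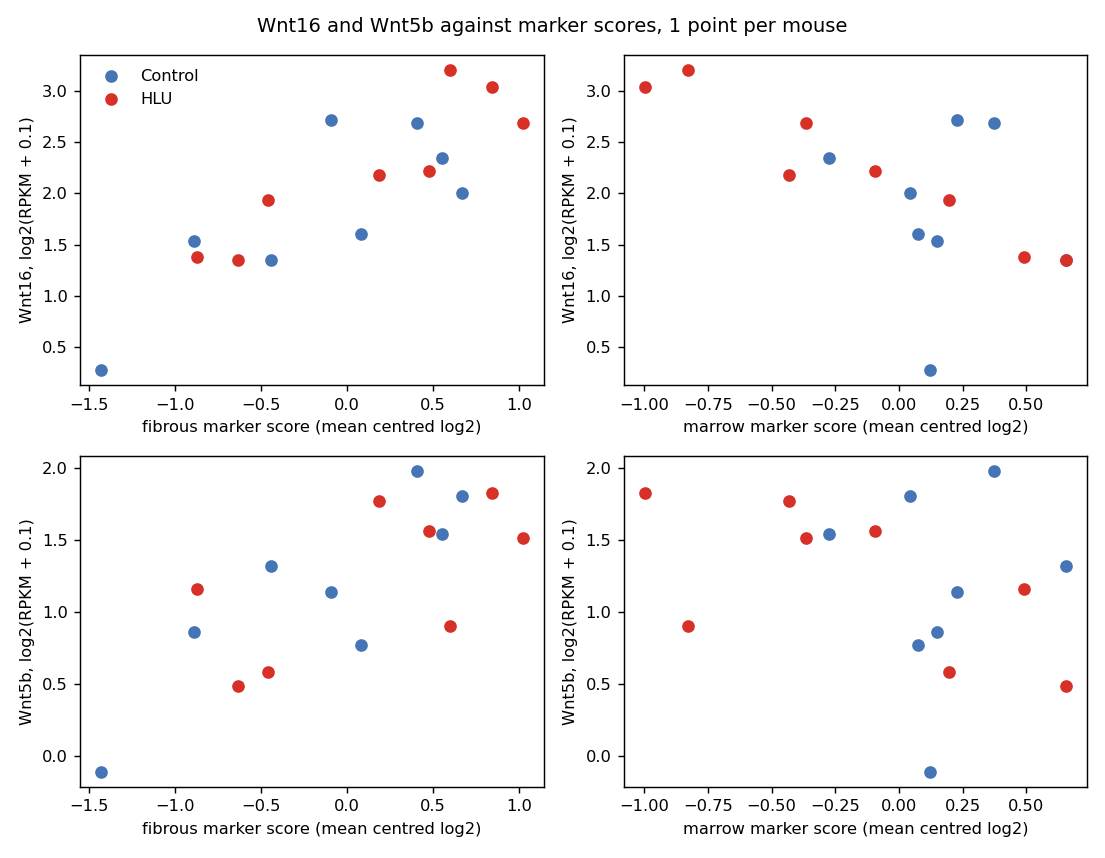
Wnt16 (top) and Wnt5b (bottom) as log2(RPKM + 0.1) against the fibrous score (left) and the marrow score (right), 1 point per mouse, Control in blue and HLU in red. Both ligands are higher in mice with a higher fibrous score, with r = 0.84 for Wnt16 and 0.76 for Wnt5b after centring on the group means, and the marrow score reaches below -0.8 in 2 HLU mice.

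These scores also differed in their means between the groups, as values beside the ligands. The marrow score was 0.17 ± 0.269 in Control and -0.17 ± 0.595 in HLU (SD, n = 8 each), the osteocyte score -0.20 ± 0.544 and 0.20 ± 0.410, and the fibrous score -0.14 ± 0.737 and 0.14 ± 0.716. For reading the counts that follow, 32.1% of all features had an estimate above 0, with a median of -0.10. At the unadjusted threshold 1.11% of all features were higher and 4.76% lower. Of the 8 erythroid markers 8 were measured and had an estimate below 0 (median log2 difference -0.64), 3 of them past the unadjusted threshold, Hbb-b1, Hbb-b2 and Klf1. The summed erythroid level was 2904 to 8520 RPKM in Control and 1609 to 4340 RPKM in HLU. For neutrophil markers, of which 7 of 10 were measured, the sums were 17492 to 37726 RPKM and 12325 to 44371 RPKM, and for the 6 B cell markers 35.1 to 138 RPKM and 29.3 to 92.2 RPKM. No measured marker of these lists was at 0. The osteocyte list had 7 of 7 markers measured and above 0 in estimate (median 0.39), with Mepe past the unadjusted threshold, and the osteoblast list had 2 of 8 above 0. The fibrous list had 7 of 8 above 0 (median 0.33), with sums of 124 to 484 RPKM in Control and 164 to 688 RPKM in HLU, and no marker of it passed. Of other cells, the T cell list had 0 of 5 measured markers above 0 with Cd3d past the unadjusted threshold, the adipocyte list 5 of 5 with Fabp4 past it, the endothelial list 6 of 6, the osteoclast list 3 of 5 and the cartilage list 2 of 3. Beyond the fit with the marrow score, whose values are given above, the part of these markers in the ligand values was not tested.

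The ligands also varied together. This relation was looked at after the ligand values had been seen. Over the 21 pairs of detected ligands, centred on group means, r was positive for 21 of 21 and ran from 0.23 to 0.91, with an adjusted permutation p under 0.05 for 16 pairs by r and 15 pairs by rho. Wnt5a and Wnt16 were the closest pair, with r = 0.91 and rho = 0.92, r = 0.95 without the 2 mice farthest from the median of Wnt5a, r = 0.87 within Control and r = 0.97 within HLU. Wnt5b and Wnt10b followed with r = 0.89, and Wnt9a and Wnt10b with 0.87. Wnt4 had r = 0.23 to Wnt16, 0.24 to Wnt2b and 0.31 to Wnt5a, none of which passed, and 0.66 to Wnt5b and 0.60 to Wnt9a, which passed. Within Control its r to the others was 0.29 to 0.91, and that of Wnt2b was 0.10 to 0.47. HLU 7 had the highest level of its group for 5 of the 7 ligands and HLU 2 the lowest for 4 of 7.

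**Figure D4:**
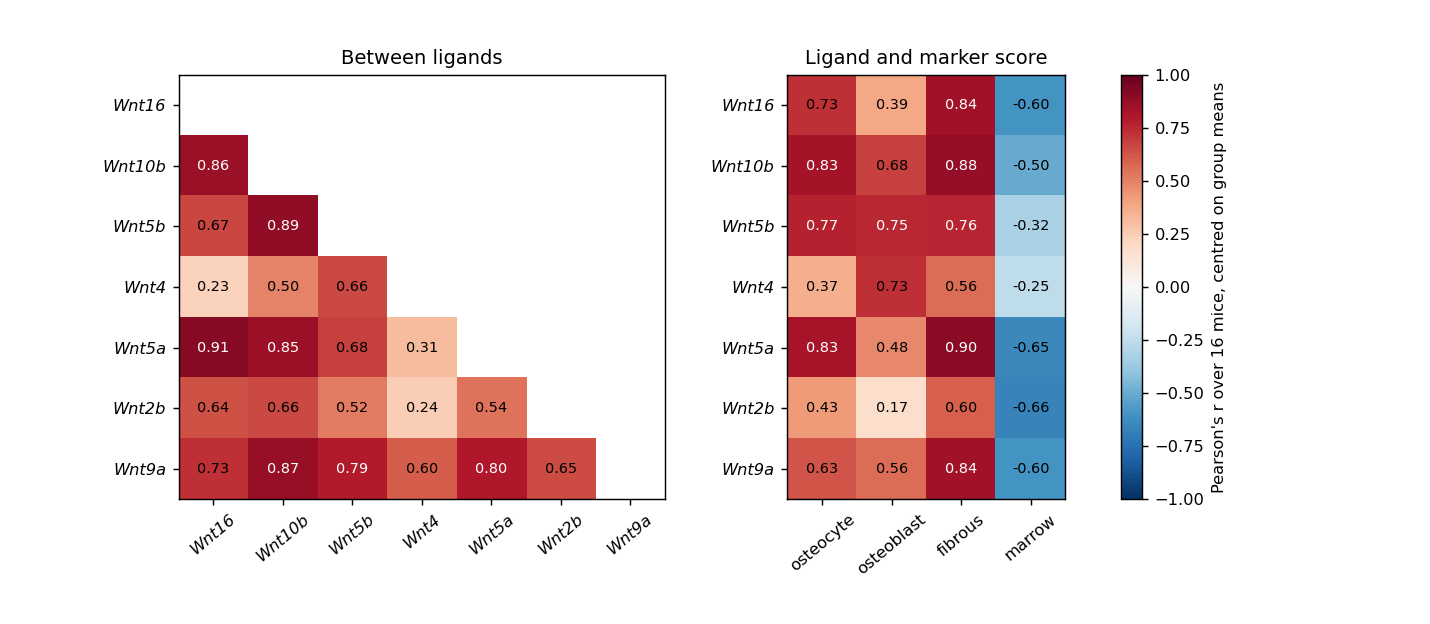
Pearson's r over 16 mice between pairs of the 7 detected ligands (left) and between each ligand and the 4 marker scores (right), all values being log2(RPKM + 0.1) centred on the group means. Colour and number both give r, which is positive for all ligand pairs and negative for all ligands with the marrow score.

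Genes whose levels followed a ligand most closely were taken from the 11096 features with a unique symbol and an average of 2 RPKM or more, by r over the 16 mice centred on the group means, as a description. For Wnt16 they were Ogn (r = 0.94), Itgbl1 (0.93) and Aspn (0.93), of which Ogn and Aspn encode small leucine-rich proteoglycans and Aspn is also in the fibrous list. For Wnt5a they were Nrep (0.97), Itm2a (0.96) and Zfp185 (0.95). For Wnt5b they were Fam20a (0.97), Arhgef25 (0.96) and Mmp2 (0.95), the last a gelatinase of the matrix. For Wnt10b they were Kank2 (0.96), Kank1 (0.95) and Pmp22 (0.94), and for Wnt9a Tmem246 (0.96), Rxrg (0.96) and Col8a2 (0.94). Wnt4 was followed most closely by Phospho1 (0.93), a phosphatase that starts matrix mineralization, by Abi3 (0.92) and by the Wnt co-receptor Lrp5 (0.89). Wnt2b was followed by Ovol1 (0.91), Shroom4 (0.88) and Gpr116 (0.86). No gene appeared for more than 1 ligand.

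Of 66 other genes of the Wnt pathway, 45 were measured above 0.5 RPKM. At the unadjusted threshold 3 were higher in HLU and 1 was lower, where 1.11% of all features were higher and 4.76% lower, 0 passed the adjusted threshold, and their median log2 difference was 0.11. For secretion, Wls was at 30.4 ± 7.09 RPKM in Control and 31.5 ± 5.40 RPKM in HLU, and Porcn at 2.04 ± 0.629 and 2.37 ± 0.794 RPKM. Of the receptors and co-receptors 12 were measured, with 2 Frizzled genes past the unadjusted threshold. Fzd7 was at 2.56 ± 0.361 RPKM in Control and 3.46 ± 0.962 RPKM in HLU (log2 difference 0.38, exact permutation p = 0.0317, adjusted p = 0.744 in limma), and Fzd4 differed by 0.53 (exact permutation p = 0.0603). Ryk, an alternative Wnt receptor with the highest level of that class, had a difference of 0.28 (exact permutation p = 0.0922).

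Among R-spondins and their receptors, which strengthen Wnt signals at the membrane, 4 were measured and Rspo3 was higher at the unadjusted threshold, with 2.60 ± 0.946 RPKM in Control and 3.48 ± 0.708 RPKM in HLU (log2 difference 0.47, exact permutation p = 0.0491, adjusted p = 0.744 in limma). Of the 10 measured inhibitors 9 had an estimate above 0, with a median of 0.35, and 0 passed either threshold. Over all features 32.1% had an estimate above 0, with a median of -0.10. Sost, the highest inhibitor, had a difference of 0.59 (standard error 0.32, exact permutation p = 0.108) and Wif1 one of -0.10. Of the 10 measured intracellular genes 5 had an estimate above 0, and Ctnnb1, which encodes beta-catenin, was at 68.0 ± 12.5 RPKM in Control and 67.1 ± 11.7 RPKM in HLU. Of the 6 measured target genes Myc was lower in HLU at the unadjusted threshold, at 4.46 ± 0.730 against 3.20 ± 0.871 RPKM (log2 difference -0.50, exact permutation p = 0.0073, adjusted p = 0.744 in limma). Wisp1, another target, differed by 0.12.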

How the data were processed

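RNA of 16 mice was sequenced by the authors from TruSeq v2 libraries, 8 to a lane, aligned with TopHat2, and deposited as RPKM per gene and mouse. The submitters' processing notes name the build mm9, TopHat2 and DESeq2. The annotation, the counting tool and the lane of each mouse are not given in the sources used here. The authors' count test could not be applied to RPKM, so HLU and Control were compared with limma 3.58.1 (R 4.3.3, trend) on log2(RPKM + 0.1), with Benjamini-Hochberg adjustment over the 16973 of 36829 features averaging 0.5 RPKM or more, and for the 3 ligands below it over 29628 features. A change had to reach 1.2-fold. Fold changes are on that scale and understate those of low genes. Whole reads were recovered from the RPKM steps with a tolerance of 0.001 plus an allowance that grew with the read number. The shortest length that fitted was taken for each feature, so closeness to whole numbers was partly built in. Reads were recovered for the 16973 features and for Wnt1, Wnt7b and Wnt11 below the filter. The recovery gave the depths, the read numbers and an alternative test with voom. Exact permutation, sign-flip and correlation tests (100000 resamples) were run with scipy 1.17.1, pandas 2.3.3 and numpy 2.4.6 under Python 3.11.15, and the limma step was tested on simulated data. Figures were drawn with matplotlib 3.10.9. The members, marker lists, pathway lists and tests were chosen with earlier results of these data known. All 10 ligands are named, with the other Wnt ligands by range, the 3 genes most like each detected ligand, and pathway genes past the unadjusted threshold or among the 2 highest of their class. Positions and sequences are from GENCODE M21 (GRCm38), not from the build of the files. Skeletal muscle markers, 3 neutrophil markers and Dvl2 were not analysed here. Alternatives were other pseudocounts (1 and 0.01), no filter or a minimum of 2 RPKM, rescaling, quantile normalization, a replicate block, the marrow score, voom, and leaving out mice.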

Additional observations from a re-analysis of the deposited data

Results flagged for a closer look

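The level of Wnt9a in HLU 7, 1.613 RPKM, lay far above the other 7 HLU mice. Its gap to the next mouse was 0.571 of the range of the group, over the 95% critical value of Dixon's test for 8 mice. Of 20 ligand and group combinations tested this was the only one, and chance alone gives about 1 in 20. Without HLU 7 the difference of Wnt9a between HLU and Control was 0.27 on the log2(RPKM + 0.1) scale.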

How the results depend on the processing

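Over 25 or 26 alternatives each, the adjusted p of every ligand stayed at 0.534 or above in limma, and the number of ligands past the adjusted threshold stayed at 0. Wnt4, Wnt7b, Wnt9a and Wnt16 were above 0 and Wnt1 below 0 under every alternative run. With the marrow score in the fit the estimate was reversed for Wnt2b (-0.18), Wnt5a (-0.0305), Wnt5b (-0.0801), Wnt10b (-0.16) and Wnt11 (-0.0618), and without the 2 smallest libraries for Wnt5b (-0.0278). Leaving out 1 mouse in turn gave -0.0378 to 0.21 for Wnt2b, -0.12 to 0.18 for Wnt5b and -0.10 to 0.33 for Wnt10b. The cause was not tested. The number of ligands higher at the unadjusted threshold, 1 (Wnt7b), became 0 with a pseudocount of 1 (where its change was under 1.2-fold), with a minimum mean of 2 RPKM (which leaves Wnt7b out), with the marrow score and without the 2 smallest libraries, and was 0 to 1 when 1 mouse was left out. The number lower was 0 to 1, the 1 being Wnt1 without Control 1. Of neighbours in the order of levels 4 were separated in HLU, against 2 in Control, a difference that was not tested.

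Over all features, the number called at the adjusted threshold was 0, and 1 without the filter. The numbers higher and lower at the unadjusted threshold were 188 and 808, of which 18.9% were higher. They were 391 and 1048 without the filter, 106 higher with a minimum mean of 2 RPKM, 381 and 395 after median-of-ratios rescaling (49.1% higher), 460 and 364 after quantile normalization (55.8% higher, with the median of all features moved by 0.10), 116 and 338 with the marrow score, and 108 higher without the 2 smallest libraries. Leaving out 1 mouse gave 0 to 1 called, 117 to 363 higher and 471 to 1385 lower, the highest numbers without HLU 2. With the replicate number as a block (replicate block) the numbers were 199 and 840, and 0 adjusted. Same-numbered mice correlated at -0.166 to 0.510, above 0.1 for 3 of 8 pairs, and 2 of 8 matched best with their own number, so the numbers were not taken as pairs. Depth limits Wnt1, Wnt7b and Wnt11, whose values rest on at most 22 reads in a mouse.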
